A study of Xenopus laevis with 4 samples.

Results

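Genes of cell adhesion and cell junctions were compared between the dorsal and the ventral pancreatic buds of *Xenopus laevis* tadpoles. They were chosen by gene symbol alone: cadherins, protocadherins, alpha- and delta-type catenins, desmosomal genes, claudins, tight junction scaffolds and occludin. Also taken were epcam, connexins, integrins and tetraspanins, with the tetraspanin gene tspan8 left out. Beta-catenin, which also binds cadherins, fell outside the rule. The rule took 110 probe sets for 86 genes, out of 15491 probe sets that are not controls and 9304 that carry exactly 1 gene symbol. A probe set is the group of short probes on the array that reads 1 transcript.

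RNA was taken from 2 dorsal and 2 ventral pools, each made of 1000 to 3000 buds cut out before the buds meet and fuse. Each pool went onto its own 1-colour Affymetrix array. The embryos were raised in dilute MMR saline and the tadpoles were anaesthetised in MS-222 before dissection, in both groups alike; the labels give no strain, genotype, tadpole stage or other agent, so the bud is the only stated difference. They also do not say whether pools of 1 kind came from separate clutches, so p-values measure the spread between these pools, which may be technical.

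Epithelial cells hold together through several kinds of junction. Cadherins bind the same cadherin on the next cell and are tied to actin through catenins, desmosomes tie intermediate filaments of neighbouring cells together, claudins and occludin seal the space between cells, and connexins form channels that join their cytoplasm. Integrins, which are pairs of an alpha and a beta chain, attach cells to the matrix beneath them, and tetraspanins are membrane proteins that gather integrins and other receptors into patches. The endoderm that gives rise to the pancreas is an epithelium, and its buds grow into surrounding mesenchyme with blood vessels.

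The deposited intensities had a mean of 100 on every array and medians of 21.8 to 24.2. The ventral arrays correlated at r = 0.981 across the tested probe sets and the dorsal arrays at r = 0.949, and the ratio of the 3′ to the 5′ control of the housekeeping gene gapdh, a sign of RNA integrity, was 9.69 and 5.53 in dorsal replicates 1 and 2 and 7.52 and 7.55 in the ventral arrays. Among markers of the dissected tissue, 17 of 26 probe sets of pancreas genes were bright enough to be tested, and the summed intensity of all 26 was 20065 and 10396 in the dorsal and 13172 and 7018 in the ventral pools. Liver genes summed to 3340 and 6279 in dorsal against 8698 and 8559 in ventral pools, and red cell genes to 9813 and 6201 against 11592 and 16023. The buds were whole tissue, in which fewer cells of a type and less RNA per cell cannot be told apart.

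The adhesion and junction genes were read unevenly by the array. As a reference for empty probe sets, 17 control probe sets for artificial tag sequences reached 21.5 at most. That value comes from ventral replicate 1; the highest tag control was 11.7 and 12.6 in dorsal replicates 1 and 2 and 9.37 in ventral replicate 2. Of the 110 adhesion and junction probe sets, 44 lay above 21.5 on all 4 arrays and 49 on none. With the limit of 12.6 from the other 3 arrays these counts were 56 and 31, and with each array held to its own highest tag control 49 and 28. The 2 families with the largest part above it on all arrays, epcam apart, were tetraspanins, with 17 of 21 probe sets, and claudins, with 10 of 13. None of the 20 probe sets for integrin alpha chains lay above it on every array, and 17 lay below it throughout. With the limit of 12.6, 2 of the 20 lay above on every array and 13 on none, while tetraspanins stayed at 17 and claudins came to 11. Intensities of different probe sets depend on their probes, so they do not rank genes by transcript level.

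**Figure D1:**
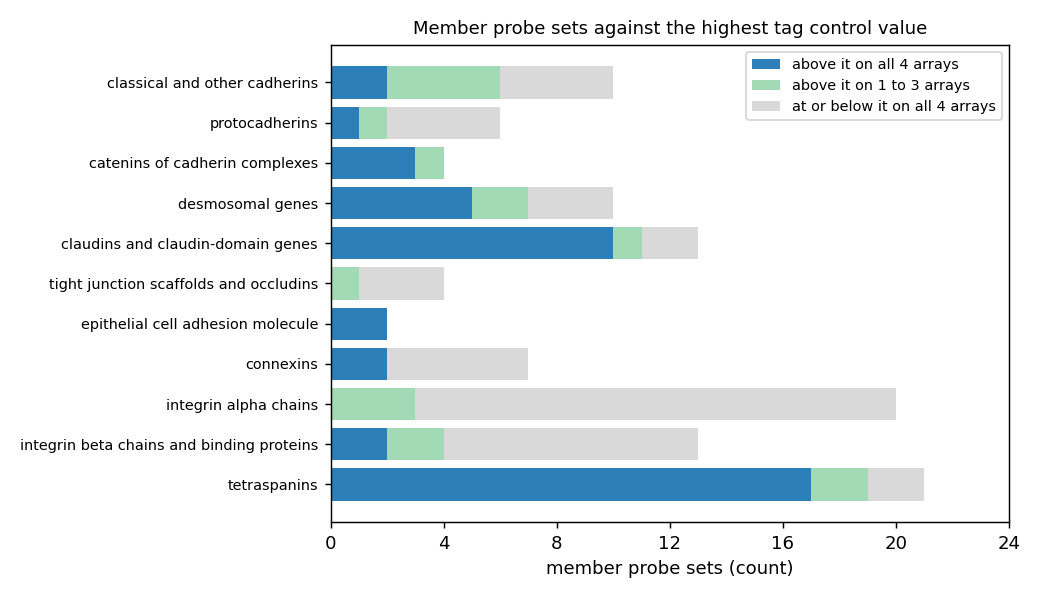
Number of adhesion and junction probe sets in each family (horizontal axis, count) that lay above the highest tag control value of 21.5 on all 4 arrays, on 1 to 3 arrays or on none. Tetraspanins (17 of 21) and claudins (10 of 13) were mostly above it, while 17 of 20 probe sets for integrin alpha chains were not above it on any array.

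No adhesion or junction gene taken by the rule passed the test for a difference between dorsal and ventral buds, and most differences were small. The tetraspanin gene tspan8 was not among them, and tm4sf4.L, in a list outside the rule, did pass and is described further below. Of the 110 probe sets, 63 for 57 genes passed the filter on dim probe sets and were tested; the other 47, for which no array exceeded 21.5, were not. With limma and Benjamini-Hochberg adjustment over all 9294 tested probe sets, 0 of the 63 differed at an adjusted p under 0.05, against 0.258% of all tested probe sets (0.0753% higher in dorsal against 0.183% higher in ventral buds), and the smallest adjusted p was 0.179. An unadjusted p under 0.05 was reached by 7 of the 63 (11.1%), where the share among all tested probe sets was 8.62%. Of these, 2 were higher in dorsal buds (3.17% of the 63, against 3.41% of all) and 5 in ventral buds (7.94%, against 5.21%).

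Differences are given as dorsal minus ventral on the log2(intensity + 6) scale, so that 1 is a doubling and negative values are higher in ventral buds. The median over the 63 was -0.08 and the quartiles were -0.31 and 0.09, beside a median of 0.03 and quartiles of -0.16 and 0.21 over all tested probe sets. A positive difference was found for 42.9% of the 63 and for 54.3% of all. Intensities of dorsal and ventral pools did not overlap for 29 of the 63, or 46%, where 39.9% of all tested probe sets did not overlap. Dorsal pools were the higher for 13 (20.6%, against 21.9% of all) and ventral pools for 16 (25.4%, against 18.1%). The difference was under 0.5 in size for 53 of the 63 (84.1%, against 89.1% of all) and over 1 for 2 (3.17%, against 2.27%), cd37.S and itga2b.2.L. On the same scale, no adhesion or junction probe set had every pool of one bud at least 2-fold above every pool of the other, which 0.882% of all tested probe sets had. In intensity itself, with nothing added, 1 of the 63 did (1.59%, against 1.18% of all): cd37.S, whose closest dorsal and ventral pools were 2.40-fold apart.

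The precision set a limit to what could be seen. The standard error of a difference ran from 0.14 to 0.52 with a median of 0.22. For 48 of the 63 the 95% interval lay within a 2-fold change in either direction (76.2%, against 82.2% of all tested probe sets), and for the remaining 15 a 2-fold difference in at least 1 direction lay within the interval.

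**Figure D2:**
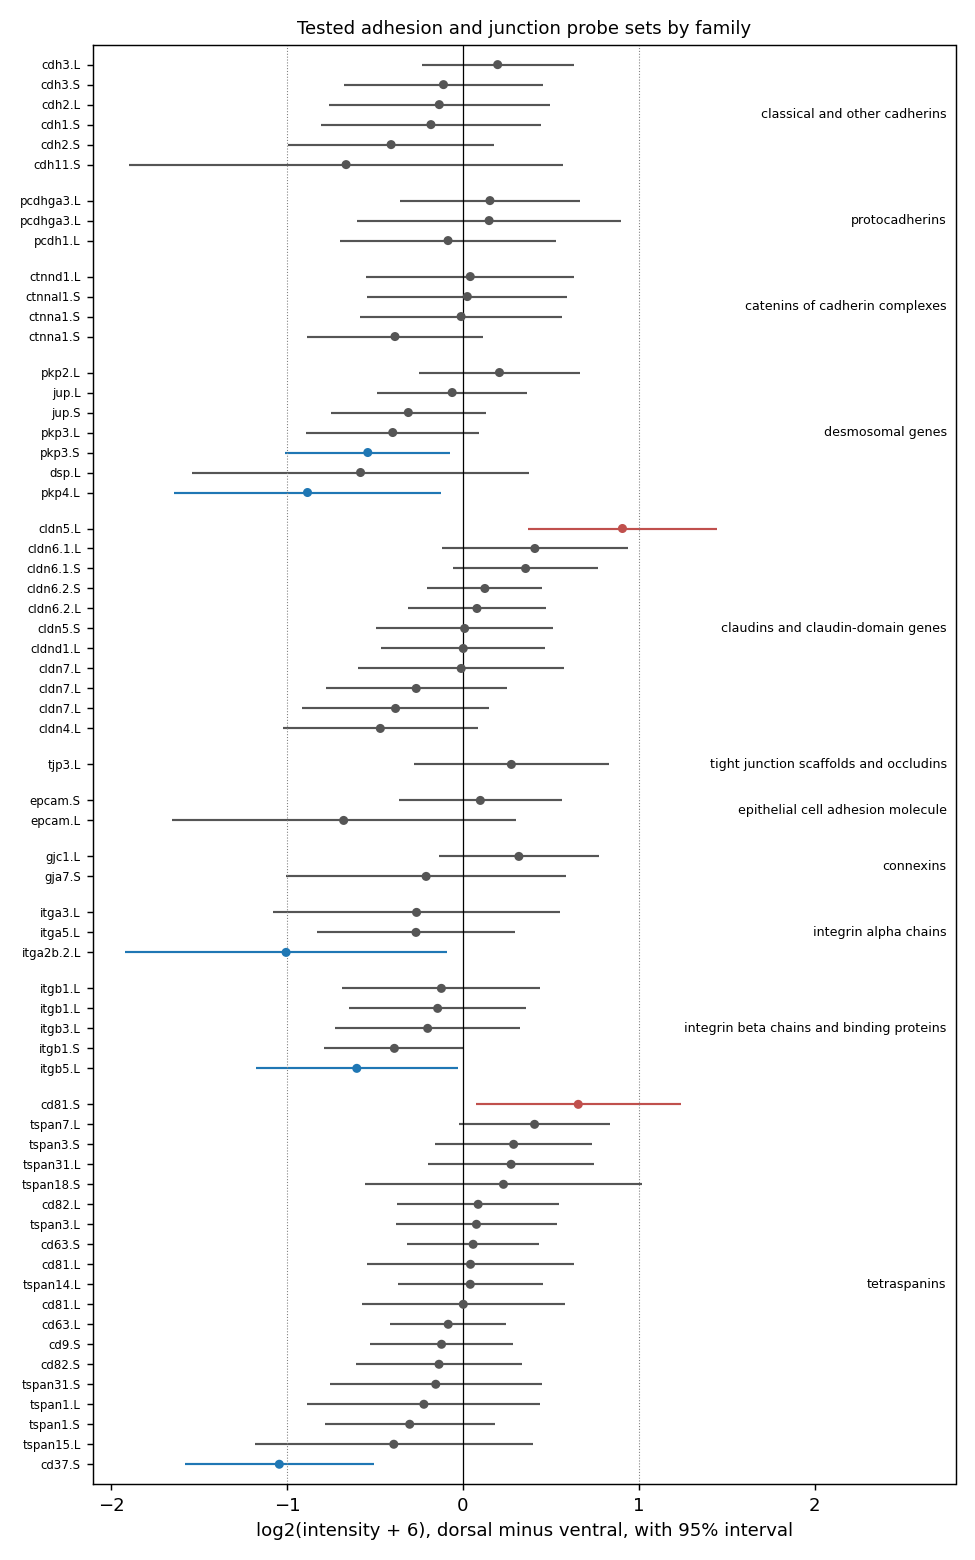
Difference between dorsal and ventral buds on the log2(intensity + 6) scale (horizontal axis, points, with 95% intervals as lines) for the 63 tested adhesion and junction probe sets, grouped by family, with dotted lines at a 2-fold change. Blue and red mark the 5 ventral and 2 dorsal probe sets with an unadjusted p under 0.05, and none passed the adjusted threshold.

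No cadherin, and no alpha- or delta-type catenin, passed the adjusted threshold or had an unadjusted p under 0.05 in limma. Beta-catenin, outside the rule, had a probe set at that unadjusted level, described further below. C-cadherin, the product of cdh3 and the cadherin of early frog embryos, was read on both homeologues, the copies on the long (.L) and short (.S) chromosomes of this allotetraploid frog. Intensity of cdh3.L was 254 and 299 in the dorsal pools and 217 and 263 in the ventral pools, a difference of 0.20 ± 0.18 (SE, adjusted p = 0.803). The copy cdh3.S stood at 81.3 and 58.4 against 86.2 and 65.1 (-0.11 ± 0.24). In each copy the 2 groups overlapped.

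E-cadherin, the main cadherin of mature epithelia, was dim on its probe set. For cdh1.S the dorsal values were 13.3 and 18.5 and the ventral values 15.2 and 22.7 (-0.18 ± 0.26). N-cadherin, known from neural tissue and mesoderm, gave 17.6 and 26.4 against 27.9 and 33.7 for cdh2.S, a difference of -0.41 ± 0.25 with an adjusted p of 0.709, and -0.13 ± 0.27 for cdh2.L. The ventral values of cdh2.S were above the dorsal ones and the values of cdh2.L overlapped. The largest difference of the family was that of cdh11.S, which encodes a cadherin of mesenchyme.

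Dorsal replicate 1 set cdh11.S apart. Its intensity was 17.0 and 71.0 in dorsal replicates 1 and 2 and 49.7 and 73.9 in the ventral pools, a difference of -0.66 ± 0.52 (adjusted p = 0.766). Without dorsal replicate 1 the difference was 0.21 and without dorsal replicate 2 it was -1.54. The mesenchyme and smooth muscle list had 19 of its 27 probe sets tested. It summed to 2179 in dorsal replicate 1, 2982 in dorsal replicate 2 and 2709.8 and 3527 in the ventral pools. Dorsal replicate 1 thus had the lowest sum there too, and most tested genes of the list were lower in it than in dorsal replicate 2, but not all. On their brightest probe sets fn1.S (259 and 438) and sparc.S (279 and 568) were lower in dorsal replicate 1 than in dorsal replicate 2. So were foxf1.L (33.3 and 69.8), pdgfra.L (27.1 and 51.0) and acta2.L (13.7 and 36.9). The same held for sparc.L (512 and 573), vim.L (165 and 212), vim.S (74.0 and 107) and fbln1.L (92.1 and 111). Collagen genes went both ways. Higher in dorsal replicate 1, alone among the tested genes of the list, were col3a1.S (71.8 and 35.6), col1a1.S (207 and 199) and col6a1.L (20.4 and 15.9). Lower in it were col1a2.L (66.1 and 110) and col6a2.L (17.2 and 34.4). Of the 27, 8 lay at or below 21.5 on every array, among them tagln.L, tagln.S and cnn1.S. The part of these cells in the result was not tested.

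Alpha-catenin, which links the cadherin complex to actin, had values of 97.1 and 95.8 in dorsal against 150 and 109 in ventral buds on the brighter probe set of ctnna1.S (-0.39 ± 0.21, adjusted p = 0.667). The ventral values were the higher there, but the other probe set of the same gene overlapped fully, with 34.4 and 46.6 against 34.7 and 46.8 (-0.01). For ctnnd1.L, which encodes the p120 catenin that stabilises cadherins at the surface, the values were 126 and 208 against 162 and 153 (0.04 ± 0.25), and the alpha-catenin relative ctnnal1.S lay at 0.03.

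Among protocadherins, cadherin relatives with weaker adhesion, pcdh1.L gave 72.6 and 43.5 against 61.8 and 58.4 (-0.08 ± 0.26) and the brighter probe set of pcdhga3.L gave 22.9 and 20.9 against 18.8 and 19.4 (0.15 ± 0.22). The other probe set of pcdhga3.L also lay at 0.15. Values of pcdh7.L, pcdh8.2.L and pcdh8l.S did not pass the filter.

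Desmosomal genes lay mostly on the ventral side. Of the 7 tested probe sets 6 had a negative difference, where 54.3% of all tested probe sets had a positive one. The median was -0.40 beside 0.03 over all. The sign was not stable for jup.L and dsp.L. With 1 array left out in turn, jup.L ran from -0.16 to 0.04 and dsp.L from -1.22 to 0.05. Each of the 7 reads a gene copy of its own, but they include both copies of pkp3 and of jup, whose probes can pick up the partner's RNA. Ventral pools were above dorsal pools without overlap for 4 of the 7, where 18.1% of all tested probe sets were, and dorsal above ventral for 1, where 21.9% were. An unadjusted p under 0.05 was reached by 2 of the 7, both ventral, where 5.21% of all tested probe sets were ventral at that level; none passed the adjusted threshold.

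Plakophilins are plaque proteins that tie desmosomal cadherins to desmoplakin. Intensity of pkp3.S was 33.0 and 30.7 in dorsal against 49.97 and 48.1 in ventral buds, a difference of -0.54 ± 0.20 with an unadjusted p of 0.0293 and an adjusted p of 0.498. Its homeologue pkp3.L was at 29.7 and 32.8 against 39.5 and 46.8 (-0.40 ± 0.21, adjusted p = 0.66). Both copies were higher in each ventral pool than in each dorsal pool. For pkp4.L, whose product is also found at adherens junctions, the values were 21.5 and 9.77 against 27.4 and 38.2 (-0.88 ± 0.32, adjusted p = 0.495). The other plakophilin, pkp2.L, was the exception in direction, with 47.3 and 49.8 in dorsal against 41.5 and 40.9 in ventral buds (0.21).

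Desmoplakin, which anchors intermediate filaments to the plaque, was dim. Values of dsp.L were 22.1 and 5.63 in dorsal against 22.1 and 20.1 in ventral buds (-0.58 ± 0.41, adjusted p = 0.75), so dorsal replicate 2 alone was low. The other copy, dsp.S, lay between 2.46 and 11.3 and was not tested. Plakoglobin, shared by desmosomes and adherens junctions, was read at 138 and 148 against 161 and 139 for jup.L (-0.06 ± 0.18) and at 92.5 and 87.4 against 105 and 121 for jup.S (-0.31 ± 0.19, adjusted p = 0.704). The desmocollin gene dsc3.S, between 3.69 and 12.8, was too dim.

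Marker lists of several other tissues lay on the ventral side, as the desmosomal genes did, and others did not. The list for epidermis with notochord or cartilage, with 10 of 23 probe sets tested, summed to 556 and 442 in dorsal against 1261 and 1181 in ventral pools. The largest single part was itln1.L, with 232 and 138 against 770 and 545. At an unadjusted p under 0.05 in limma 7 of the 10 were ventral, where 5.21% of all tested probe sets were. The cartilage gene col9a1.L (0.95) alone was dorsal at that level, where 3.41% of all were. Of the 23, 12 lay at or below 21.5 on every array, including both copies of the epidermal protease gene xepsin. Ventral probe sets at the same level also made up 14 of the 22 tested for skeletal muscle, 14 of 24 for liver and 7 of 10 for red cells. The skeletal muscle list also took in myosin genes of other cell types, myh9.L (0.13), myh10.S (-0.06) and myh6.S (0.59). Of these myh9.L was the brightest of the list, at 288 and 469 in dorsal against 296 and 380 in ventral pools. Other lists did not lie on the ventral side, with medians of 0.33 for neural tissue, 0.27 for endothelium and 0.06 for thrombocytes. The neural median rests on 5 of 22 probe sets, and the dorsal pools were split. That list summed to 143 and 439 in dorsal replicates 1 and 2 against 205 and 230 in ventral pools. The intestine and stomach list, with a median of -0.07, summed to 867 and 1408 in dorsal against 263 and 295 in ventral pools. The part of other tissues in the desmosomal values was not tested.

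Claudins, the sealing proteins of tight junctions, lay on both sides, with a median of 0.01 over 11 tested probe sets. The probe set with the largest difference was that of cldn5.L, a claudin known in mammals from the endothelium of blood vessels. Its intensity was 36.0 and 42.5 in dorsal against 15.8 and 20.6 in ventral buds, a difference of 0.91 ± 0.23 with an unadjusted p of 0.00511 and an adjusted p of 0.235. Both dorsal pools were above both ventral pools, and the ventral values lay below 21.5. Its homeologue cldn5.S did not share the difference, with 120.4 and 93.5 against 94.8 and 117 (0.01 ± 0.21), and the difference between the copies was not tested.

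No endothelial marker passed the test. The endothelium list had 10 probe sets, of which 7 were tested and 0 had an unadjusted p under 0.05 in limma (adjusted p of at least 0.584), and its summed intensity was 332 and 304 in dorsal against 273 and 346 in ventral pools. Differences of the 7 had a median of 0.27 and ran from -0.59 for lmo2.S to 0.31 for tek.S, with pecam1.L at -0.12. Dorsal pools were the higher without overlap for 3 of the 7, where 21.9% of all tested probe sets were. These were tek.S, egfl7.S (0.31) and sox18.S (0.27). Ventral pools were the higher without overlap for 1, lmo2.S, where 18.1% of all were. The probe sets of flt1.L, sox7.L, sox18.L and sox18.S were at or below 21.5 on every array.

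The claudins of early epithelia, cldn6.1 and cldn6.2, had positive differences in both copies. Values of cldn6.1.S were 173 and 188 in dorsal against 132 and 147 in ventral buds (0.36 ± 0.17, adjusted p = 0.65), and those of cldn6.1.L were 46.9 and 60.8 against 34.8 and 43.1 (0.41 ± 0.22, adjusted p = 0.667). The dorsal pools were the higher in both copies without overlap. For cldn6.2.L, at 559 and 725 against 614 and 590, and cldn6.2.S, at 677 and 615 against 593 and 589, the differences were 0.08 and 0.13, and the 95% interval of cldn6.2.S ran from -0.20 to 0.45.

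Other claudins leaned to the ventral side. The gene cldn4.L had 38.1 and 31.9 in dorsal against 60.01 and 42.5 in ventral buds (-0.47 ± 0.24, adjusted p = 0.654). For cldn7.L, a claudin of gut and kidney epithelia, 3 probe sets gave -0.38, -0.27 and -0.01; on the brightest the values were 334 and 215 against 357 and 346, with dorsal replicate 2 the lowest by far. The claudin-domain gene cldnd1.L lay at 0.00, and cldn1.S, between 0.34 and 13.1 on its 2 probe sets, was too dim to be tested.

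The remaining tight junction genes were dim. The scaffold gene tjp3.L, which encodes ZO-3, gave 28.1 and 26.9 against 25.8 and 18.0 (0.28 ± 0.24, adjusted p = 0.787), and tjp3.S was not tested. Occludin, a membrane protein of the tight junction strand, lay between 10.6 and 21.5 on the brighter probe set of ocln.S, with dorsal values of 15.7 and 21.5 and ventral values of 13.8 and 10.6, and was not tested.

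Epcam is an adhesion protein that marks epithelial cells, and no difference between its copies was tested. Intensity of epcam.S was 337 and 257 in dorsal against 300.1 and 251 in ventral buds (0.10 ± 0.20, 95% interval -0.36 to 0.56). For epcam.L the values were 73.4 and 25.01 against 67.1 and 80.1, a difference of -0.68 ± 0.41 with an adjusted p of 0.709. Dorsal replicate 1 lay among the ventral pools and dorsal replicate 2 alone was low. Without dorsal replicate 2 the difference of epcam.L was 0.00, and without dorsal replicate 1 it was -1.36.

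Connexins were read above 21.5 on all arrays by 2 of 7 probe sets. These were gjc1.L and gja7.S; the symbol gja7 is an older name of gjc1, and RefSeq lists gjc1 as a synonym of gja7.S. A probe set of gjc1.L gave 922 and 940.1 in dorsal against 902 and 615 in ventral buds (0.32 ± 0.19, adjusted p = 0.708), while the other probe set of the gene lay between 2.55 and 19.0, so what the bright one reads is uncertain. Values of gja7.S were 48.4 and 107 against 80.0 and 89.0 (-0.21 ± 0.34), with dorsal replicate 1 the lowest. The probe sets of gja1.L, at most 3.35, and gjb2.L, at most 20.2, were not tested.

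Among integrins, both copies of the beta 1 chain, the common partner of many alpha chains, were read above 21.5 on all arrays. Intensity of itgb1.S was 192 and 183 in dorsal against 264 and 232 in ventral buds, a difference of -0.39 ± 0.17 with an unadjusted p of 0.0542 and an adjusted p of 0.59. The ventral pools were the higher without overlap. Its homeologue itgb1.L gave 299 and 203 against 269 and 277 (-0.14 ± 0.21), where dorsal replicate 1 was above both ventral pools, and the second probe set of that gene, dim at 13.5 to 18.8, lay at -0.12.

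Of the other beta chains, itgb5.L, which pairs with the alpha V chain, had 11.5 and 15.3 in dorsal against 26.4 and 20.6 in ventral buds (-0.60 ± 0.24, unadjusted p = 0.0419, adjusted p = 0.551). The groups did not overlap, and 3 of the 4 values lay below 21.5. The platelet and vessel chain itgb3.L was at -0.20 on 16.4 and 19.1 against 19.9 and 22.7. The leukocyte chain itgb2.L, on 2 probe sets, did not exceed 4.39 on any array, and itgb6.L, itgbl1.L and itgb1bp2.L also stayed below 21.5.

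Alpha chains were dim. The fibronectin receptor chain itga5.L gave 20.2 and 27.7 against 33.0 and 26.7 (-0.27 ± 0.24) and the laminin receptor chain itga3.L gave 20.4 and 48.0 against 35.8 and 43.1 (-0.26 ± 0.35). The third tested chain was itga2b.2.L, the alpha chain of platelet integrin in mammals. Its values were 14.9 and 5.21 in dorsal against 17.4 and 34.2 in ventral buds (-1.005 ± 0.39, unadjusted p = 0.0356, adjusted p = 0.536), and 1 of the 4 lay above 21.5. With 4 times the pseudocount the difference was -0.54. The thrombocyte list held probe sets of nfe2.S and fli1.S alone, summing to 507 and 477 in dorsal against 453 and 470.5 in ventral pools, with 0 of 4 tested probe sets at an unadjusted p under 0.05 in limma. The untested alpha chains were itga2.L, itga2b.1.S, itga4.S, itga5.S, itga6.L, itga11.S, itgav.L and a probe set named itgav-a, together with 1 or more probe sets of itga3.L and itga5.L.

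Tetraspanins, the best read family, had a median of 0.04 over 19 tested probe sets, 1 with an unadjusted p under 0.05 on each side. The smallest p of all adhesion and junction genes was that of cd37.S, a tetraspanin of leukocytes in mammals. Its intensity was 8.50 and 10.5 in dorsal against 26.6 and 25.1 in ventral buds, a difference of -1.04 ± 0.23 with an unadjusted p of 0.00248 and an adjusted p of 0.179. Both ventral pools lay above 21.5 and both dorsal pools below it. With 4 times the pseudocount the difference was -0.57 and with a pseudocount of 1 it was -1.36. The copy cd37.L, between 5.92 and 17.7 with overlapping groups, was not tested.

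In the leukocyte list the tested markers were higher in ventral buds, as cd37.S was. The list held 11 probe sets, with summed intensities of 166 and 207 in dorsal against 467 and 778 in ventral pools. All 5 tested probe sets were ventral at an unadjusted p under 0.05 in limma, where 5.21% of all tested probe sets were. They were epx.L at -2.07, mpo.L at -1.72, prtn3.S at -1.64, cyba.L at -1.42 and coro1a.S at -0.81. Of the 11, 4 lay at or below 21.5 throughout, among them the pan-leukocyte gene ptprc.L (at most 1.76) and the lysozyme gene lyz.L (at most 4.27). Between ventral replicates 1 and 2 the markers of the list were divided. The list sum went from 467 to 778, epx.L from 115 to 222 and mpo.L from 136 to 217. Values of prtn3.S went from 72.7 to 126 and those of coro1a.S from 33.0 to 66.5. Closer together were cyba.L (52.4 and 58.8) and the untested cybb.L (21.8 and 21.5) and lcp1.S (15.2 and 17.0). Values of cd37.S were 26.6 and 25.1. The part of leukocytes in the cd37.S value was not tested.

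On the dorsal side stood cd81.S, which encodes a widely expressed partner of integrins. Its values were 290.04 and 479.9 in dorsal against 225 and 245 in ventral buds, a difference of 0.66 ± 0.25 with an unadjusted p of 0.0322 and an adjusted p of 0.515. Both dorsal pools were the higher, dorsal replicate 2 by far: without it the difference was 0.30, and without dorsal replicate 1 it was 1.01. The copy cd81.L overlapped, with 69.8 and 99.2 against 71.9 and 96.0 (0.00), and its second probe set lay at 0.04.

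Several tetraspanins of membranes inside and at the surface of most cells were close between the buds. Values of cd63.L, a protein of late endosomes and lysosomes, were 510.3 and 483 against 523 and 529 (-0.08 ± 0.14, 95% interval -0.41 to 0.25), and cd63.S gave 744 and 600.3 against 672 and 613 (0.06 ± 0.16). The integrin partner cd9.S was at 189 and 166 against 193 and 193 (-0.12 ± 0.17). Differences were 0.09 for cd82.L and -0.14 for cd82.S, and the intervals of these 5 probe sets all lay within a 2-fold change.

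Of the remaining tetraspanins, tspan7.L had 137 and 142 in dorsal against 111 and 96.2 in ventral buds (0.41 ± 0.18, adjusted p = 0.608), without overlap. The gene tspan1.S gave 48.1 and 60.7 against 70.0 and 66.2 (-0.30 ± 0.20) and tspan1.L lay at -0.22. Dorsal pools were also above ventral pools for tspan3.L (0.08), tspan3.S (0.29) and tspan31.L (0.27), whereas tspan31.S (-0.15), tspan14.L (0.04), tspan15.L (-0.39) and tspan18.S (0.23) overlapped. The genes tspan14 and tspan15 encode partners of the shedding protease ADAM10 in mammals. Of that group tspan5.S was too dim to be tested.

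**Figure D3:**
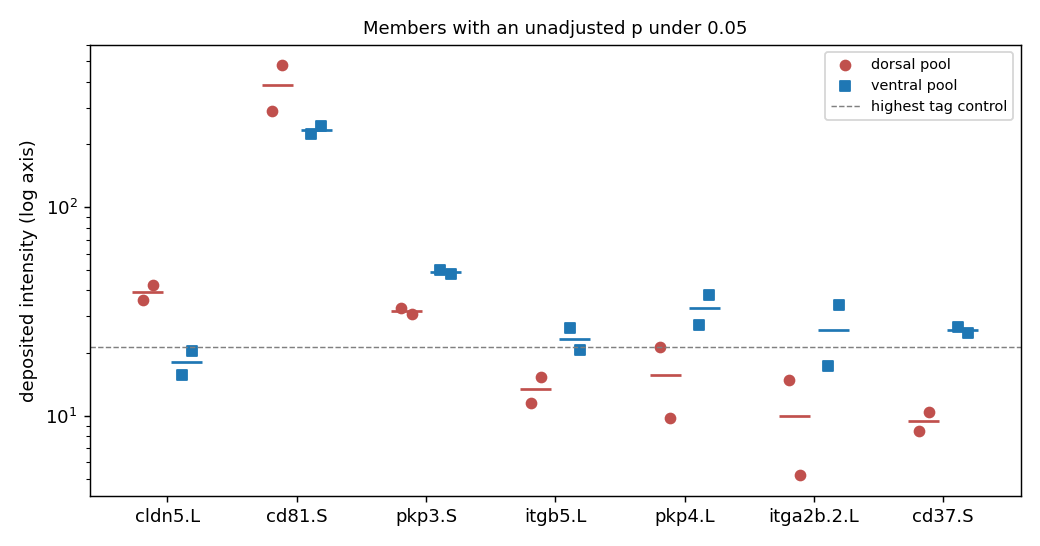
Deposited intensity (vertical axis, log scale) in each dorsal pool (red circles) and ventral pool (blue squares) for the 7 adhesion and junction probe sets with an unadjusted p under 0.05, with bars at group means and the highest tag control of 21.5 as a dashed line. Groups do not overlap for any of the 7, but in 5 of them at least 1 pool lies below the dashed line.

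The dorsal pools differed from each other more than the ventral pools did. Over the 63 tested probe sets, replicate differences on the log2(intensity + 6) scale had an SD of 0.55 in dorsal against 0.29 in ventral buds. On that scale dorsal pools were over 2-fold apart for 6 of the 63 (9.52%, against 4.71% of all tested probe sets), ventral pools for 0 (0.355% of all). Dorsal replicate 2 was the higher for cdh11.S, gja7.S, itga3.L and tspan18.S, and dorsal replicate 1 for epcam.L and dsp.L. For 39 of the 63 (61.9%, against 62.0% of all) the gap between the dorsal pools was larger than the difference between the groups.

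**Figure D4:**
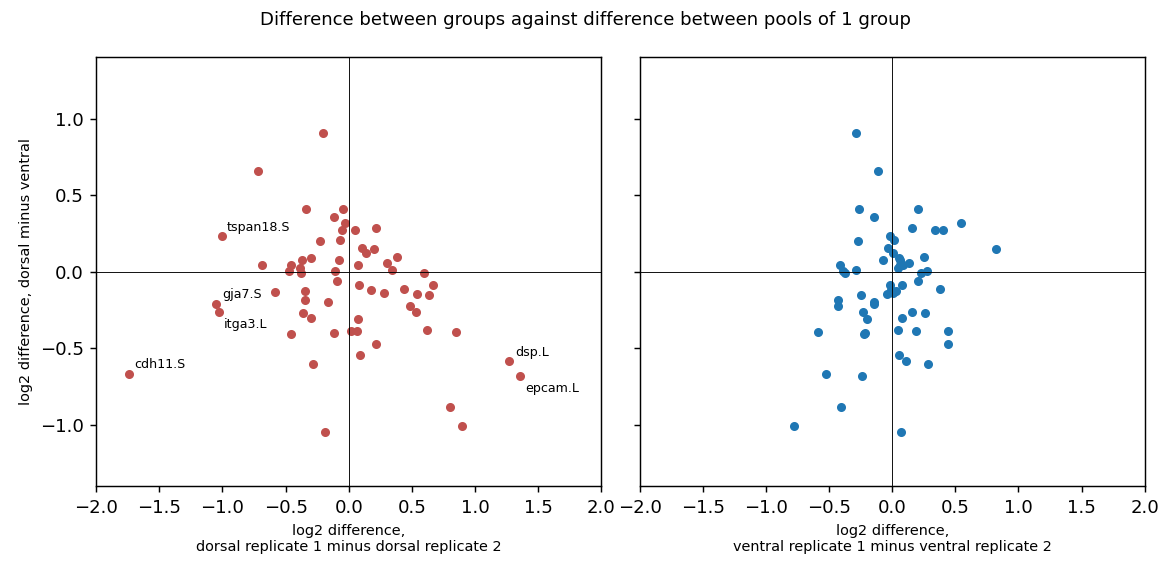
Difference between dorsal and ventral buds (vertical axis, log2) against the difference between the 2 dorsal pools (left, red) and the 2 ventral pools (right, blue) for the 63 tested adhesion and junction probe sets. On the log2(intensity + 6) scale the 6 labelled probe sets are over 2-fold apart between the dorsal pools, and none is between the ventral pools.

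Leaving out 1 dorsal array changed calls. Without dorsal replicate 1, 8 of the 63 passed the adjusted threshold, in a fit where 9.71% of all tested probe sets did. They were cd81.S (1.01) and cldn5.L (1.01) on the dorsal side and epcam.L (-1.36), itga2b.2.L (-1.45), pkp4.L (-1.28), dsp.L (-1.22), cldn7.L (-0.69) and cd37.S (-0.95) on the ventral side. Without dorsal replicate 2, cdh11.S (-1.54) and cd37.S (-1.14) passed, with 3.74% of all tested probe sets. Without ventral replicate 1 or ventral replicate 2 none of the 63 passed, and 0.043% of all did. In each of these fits the lone array was taken to vary like the pair.

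Homeologous copies gave a view of the same gene through different probes, although a probe designed on one copy can pick up RNA from its partner. Both copies were tested for 15 of the 20 genes with an L and an S copy among the adhesion and junction genes. Copies were matched by symbol, so gjc1.L (0.32) and gja7.S (-0.21), which may be copies of the same gene, were not counted as a pair. The median gap between the differences of the copies was 0.25, and 5 of the 15 pairs had opposite signs. The gap was over 0.5 for 3 pairs, cldn5 (0.90), epcam (0.78) and cd81 (0.65). Both copies of pkp3, itgb1, cdh2, tspan1 and jup had negative differences, and both copies of cldn6.1, cldn6.2, tspan3, cldn5 and cd81 positive ones, those of cldn5.S and cd81.L being 0.01 and 0.00. Among the 5 genes with several tested probe sets, the probe sets of 1 gene were at most 0.38 apart.

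**Figure D5:**
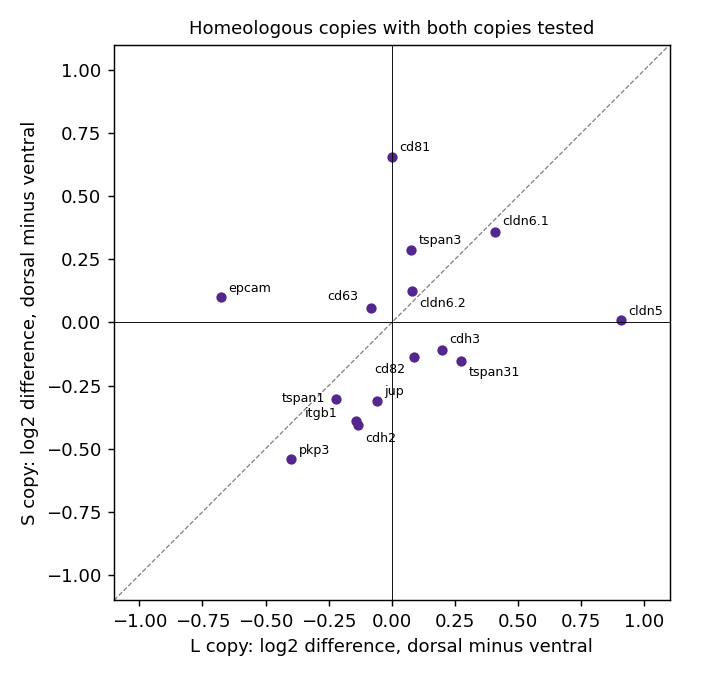
Difference between dorsal and ventral buds for the L copy (horizontal axis, log2) and the S copy (vertical axis, log2) of the 15 genes with both copies tested, with a dashed line where the copies are equal. The pairs cldn5, epcam and cd81 lie farthest from the line, at gaps of 0.90, 0.78 and 0.65.

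Other genes of adhesion and polarity were taken by lists of symbols outside the rule. Of the integrin linkers and focal adhesion genes 20 of 26 probe sets were tested, with a median of -0.05, 0 past the adjusted threshold in limma and 1 at an unadjusted p under 0.05. This was fermt1.L, a kindlin that activates integrins, at 29.7 and 39.1 in dorsal against 16.1 and 20.7 in ventral buds (0.72, adjusted p = 0.442). Of the beta-catenin, nectin and polarity genes 14 of 18 were tested, with a median of -0.09, 0 past the threshold in limma and 1 at an unadjusted p under 0.05, a probe set of ctnnb1.L (1.04, adjusted p = 0.513). Its values of 168 and 430.5 in dorsal against 129 and 126 in ventral buds show dorsal replicate 2 far above the rest. The other tested probe set of ctnnb1.L lay at 1.15 ± 0.63, on 26.9 and 149 against 28.8 and 23.7. There too dorsal replicate 2 alone was high, and the groups overlapped. The homeologue ctnnb1.S was at -0.27. Immunoglobulin-type adhesion genes, 9 of 17 tested, had a median of -0.04 and 0 at either threshold in limma.

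The list of other junction and tetraspanin-partner genes, 9 of 23 tested, had a median of -0.44. Ventral pools were above dorsal pools without overlap for 7 of the 9, where 18.1% of all tested probe sets were. The gene tm4sf4.L alone passed the adjusted threshold in limma (-4.51, adjusted p = 0.00332). At an unadjusted p under 0.05, 3 more were ventral, where 5.21% of all tested probe sets were. Among these were the plakin genes of the cornified envelope and desmosome, evpl.L at 11.8 and 10.8 in dorsal against 35.9 and 39.3 in ventral buds (-1.33, adjusted p = 0.0895) and ppl.L at 10.0 and 12.2 against 32.5 and 31.7 (-1.16, adjusted p = 0.115). The third was the uroplakin gene upk3a.L (-0.90, adjusted p = 0.249). The list for epidermis with notochord or cartilage, with the higher sum in ventral pools, lay on the same side as these genes. So did the lists for skeletal muscle, liver and red cells. Those for endothelium and neural tissue did not, with medians of 0.27 and 0.33, although the neural sum was lowest in dorsal replicate 1. The part of other tissues in these values was not tested.

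The 47 probe sets left out of the test were dim in both buds, between 0.217 and 21.5. When they were fitted without the filter, 5 of the 47 had an unadjusted p under 0.05 (10.6%), as had 8.6% of all probe sets that the filter removed. Of these dsp.S lay at 2.96 and 2.46 in dorsal against 11.3 and 9.82 in ventral buds (-0.93, adjusted p = 0.331), both probe sets of cldn1.S were ventral (-0.82 and -0.90), and pcdh7.L (0.70) and 1 of the 2 probe sets of itga2b.1.S (0.71) were dorsal. The dorsal probe set of itga2b.1.S has the same source sequence as the one named itgav-a, so the gene it reads is uncertain. The second probe set of itga2b.1.S lay at -0.55. All these values are under 21.5, but on ventral replicate 2, whose own highest tag control was 9.37, dsp.S at 9.82 and the brighter probe set of cldn1.S at 13.1 lay above that control.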

How the data were processed

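The authors deposited a table of intensity values on a linear scale; the submitters' processing notes name MAS5, with no version. Scaling target, background settings and detection calls are not stated. Per the labels' protocols, cDNA primed with oligo(dT) was transcribed into biotin-labelled copy RNA, of which 15 µg was fragmented; such priming favours 3′ ends. Pools held 1 to 5 ng of RNA, while the labelling protocol gives 10 µg as typical, and amplification is not stated.

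Of 15611 probe sets, 120 controls were left out. The arrays' 2% trimmed means lay within 10% of each other, so the deposited scaling was kept. The pseudocount of 6 is the 20th percentile of all values, and probe sets with a mean log2 above the 40th percentile (9294) were tested. The tests were run on the log2 scale in limma 3.58.1 under R 4.3.3 (lmFit, eBayes with intensity trend, no covariate), with Benjamini-Hochberg adjustment and a threshold of 0.05. The procedure was tested on simulated data. The number of arrays limits the precision.

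Symbols came from the platform annotation; RefSeq's *Xenopus laevis* v10.1 table matched 108 of the 110 by gene identifier and changed none. A gene is represented by its probe set with the highest mean log2. Positions and sequences were not used here, as the annotation names no genome build. Named were all genes with an unadjusted p under 0.05, the 3 largest differences and 2 brightest of each family, and 41 core genes, of which 10 had no probe set of 1 symbol; other genes were chosen after their values were seen. Members, lists and tests were chosen with earlier results of these data known. Marker lists for intestine, skeletal muscle and neural tissue gave summed intensities of 867 and 1408, 1238 and 1135, and 143 and 439 in the dorsal and of 263 and 295, 1934 and 2425, and 205 and 230 in the ventral pools. The gene darmin.L made up most of the dorsal intestine sums. The brightest gene of the skeletal muscle list was myh9.L, which encodes a non-muscle myosin.

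Replicate numbers are shared between the groups, but nothing says that they pair the pools.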

Additional observations from a re-analysis of the deposited data

How the results depend on the processing

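The alternatives were another pseudocount, another filter, quantile normalization, scaling by the 2% trimmed mean, no intensity trend, the replicate number as a block, 1 probe set per gene and leaving out each array in turn. With all 4 arrays, no adhesion or junction probe set passed the adjusted threshold under any of them. Without 1 array the count ran from 0 to 8, the count at an unadjusted p under 0.05 from 2 to 20 and the count without overlap from 37 to 54, the last because fewer arrays overlap less. The main count of 7 at an unadjusted p under 0.05 was 2 of 46 (4.35%, against 8.75% of all tested) with the filter at the 60th percentile and 12 of 110 (10.9%, against 8.31%) with no filter, which also raised the 29 without overlap to 46 (41.8%, against 38.6%). The count of 24 over all probe sets was 13 with the 60th percentile filter, and 4 to 902 without 1 array. With the replicate block it was 67, and 6 adhesion and junction probe sets had an unadjusted p under 0.05. Deviations of arrays with the same number from their group means correlated at 0.05. With 2 arrays in each group this cannot settle whether pools with the same number belong together. The median over the adhesion and junction probe sets stayed between -0.13 and -0.01. Of 560 values for 48 named probe sets under 12 alternatives, 525 kept their direction, and the 35 that changed sign had an unadjusted p of 0.05 or more in both fits. Detection calls are not given, so for the 49 probe sets below 21.5 neither presence nor absence can be stated. The limits of 12.6 and of each array alone, and the fold with nothing added, were chosen after seeing the data.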
